A study of Mus musculus with 2 samples.

Results

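The aryl hydrocarbon receptor (AHR) genes described here are 6 of the 19465 genes counted in mouse skin by spatial transcriptomics: the receptor gene *Ahr*, its repressor gene *Ahrr*, and the target genes *Cyp1a1*, *Cyp1b1*, *Tiparp* and *Nqo1*. They were taken by gene symbol from the counts and had been selected with their levels in these sections in view, so their values are given as a description. All 6 were found in both sections. AHR is a ligand-activated transcription factor that waits in the cytoplasm with HSP90, moves to the nucleus when it binds dioxins, tryptophan metabolites or other ligands, and pairs there with ARNT to bind response elements with the core GCGTG. *Cyp1a1*, a cytochrome P450 that metabolizes many AHR ligands, is the classical readout of the receptor. The AHR repressor competes for ARNT, and TIPARP, an ADP-ribosyltransferase, also feeds back on the receptor. In skin the pathway is known for its part in the epidermal barrier and in chloracne, a skin disease after exposure to dioxin. Loss of sebaceous glands is among the features of chloracne.

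There were 2 sections, 1 per genotype and each from 1 mouse: *S1pr2 f/f* (the f/f section) and *S1pr2 f/f K14-Cre* (the K14-Cre section). Both mice carried floxed *S1pr2*, were 8 weeks old, had the back depilated and received 62.5 mg of 5% imiquimod (IMQ) cream daily for 7 days. In the K14-Cre mouse, Cre from the keratin 14 promoter acts in basal keratinocytes and in the hair follicle and sebaceous cells that derive from cells with that promoter active. The tissue was formalin-fixed and paraffin-embedded, cut at 10 μm and laid on capture areas with sides of 11 mm. Neither section came from untreated skin, so no value below shows what IMQ did, and with 1 section per genotype no difference between the sections has a replicate check.

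The f/f section held 1282 spots over tissue with 5315351 unique molecular identifiers (UMIs, tags of single captured molecules), a median of 3542.5 per spot, and the K14-Cre section held 981 spots with 2845826 UMIs, a median of 2319. Levels are UMIs per 1000000 UMIs of the same spots (CPM), with 95% intervals for counting error only. Probes differ between genes, so levels are compared between places and not between genes. *S1pr2* itself stood at 29.0 CPM (154 UMIs) in the f/f section and 19.0 CPM (54 UMIs) in the K14-Cre section. In the keratinocyte-gene region the K14-Cre section was not lower, at 16.5 CPM (8 UMIs) against 12.8 CPM (12 UMIs), a log2 ratio of 0.37 (-1.13 to 1.78). These counts do not check the deletion, and the place of the probe relative to the deleted part is not given in the sources used here. As a measure of counts that skin should lack, 1226 olfactory, vomeronasal, taste and trace amine receptor genes were used. A receptor gene of this background had a mean of 2.21 CPM in the f/f section and 5.98 CPM in the K14-Cre section. The 357 barcodes that the sections share are positions of the array and not cells.

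Promoters are shown for *Cyp1a1*, the gene whose layer the results turn on, and for *Ahrr*, whose protein competes for the same core. The third is that of *Cyp1b1*, a target whose layers differ from those of *Cyp1a1* in the f/f section. Each is the 250 bases before the start of the gene in RefSeq on GRCm38.p6, 5′ to 3′ on the strand of the gene, with GCGTG or its reverse complement CACGC in capitals. The start is the one of the RefSeq promoter entry, and the full RefSeq span of *Cyp1a1* begins further upstream, so that its window lies inside that span.
*Cyp1a1* (chr9:57697363-57697612, + strand): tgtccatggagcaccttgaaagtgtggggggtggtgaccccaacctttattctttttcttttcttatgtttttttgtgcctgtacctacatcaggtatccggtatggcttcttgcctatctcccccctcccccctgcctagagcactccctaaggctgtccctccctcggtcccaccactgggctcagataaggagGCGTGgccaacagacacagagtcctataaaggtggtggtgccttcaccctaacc
*Ahrr* (chr13:74292332-74292581, − strand): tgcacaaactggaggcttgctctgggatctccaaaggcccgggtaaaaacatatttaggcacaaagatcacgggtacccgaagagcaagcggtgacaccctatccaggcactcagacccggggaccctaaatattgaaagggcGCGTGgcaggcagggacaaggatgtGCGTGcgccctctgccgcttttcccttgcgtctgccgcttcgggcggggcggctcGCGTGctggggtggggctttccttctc
*Cyp1b1* (chr17:79715062-79715311, − strand): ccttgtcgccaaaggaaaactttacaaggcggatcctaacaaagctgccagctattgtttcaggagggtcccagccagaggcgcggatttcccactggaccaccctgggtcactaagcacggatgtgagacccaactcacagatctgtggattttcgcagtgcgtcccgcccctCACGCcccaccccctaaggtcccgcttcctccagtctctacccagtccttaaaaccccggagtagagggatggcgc
The *Cyp1a1* window held 1 match, 54 bases before the start. The *Ahrr* window held 3, at 107, 82 and 27 bases, and the *Cyp1b1* window 1, at 76 bases. Of the other members, *Tiparp* had 1 match in its window (chr3:65528197-65528446) and *Nqo1* had 0 (chr8:107403206-107403455), while *Ahr* has no entry in the table used. Of 32851 promoters of the same length, 28.2% held at least 1 match and 2.77% held at least 3. A match only says that these 5 letters occur there, and the best known response elements of *Cyp1a1* lie further upstream than this window.

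Spots were grouped into regions by their other genes, with the 6 members and the pathway genes below kept out. A keratinocyte-gene region (208 spots in the f/f section and 159 in the K14-Cre section), a sebaceous-gene region (232 and 308) and a muscle-gene region (145 and 329) were named from marker lists. In the sebaceous-gene region, all 8 sebaceous markers, *Awat1*, *Mc5r* and *Scd3* among them, exceeded their level in all other spots at least 2-fold in both sections. In the K14-Cre section, 4 of 4 melanocyte markers and 3 of 4 T cell markers were at least 2-fold there too, and 0 of either list in the f/f section. Basal keratinocyte markers exceeded it there as well, 3 of 8 in the f/f section and 5 of 8 in the K14-Cre section, and hair and inner root sheath markers did for 1 of 7 and 3 of 7. Sebaceous markers summed to 1412 CPM in the sebaceous-gene region of the f/f section and to 730 CPM in that of the K14-Cre section. Muscle markers summed to 1313 and 10445 CPM in these regions, and dermis markers to 11491 and 18168 CPM. The keratinocyte-gene regions of the sections also differed in their markers. Keratinocyte markers summed to 159005 CPM there in the f/f section and 74697 CPM in the K14-Cre section. Differentiated keratinocyte markers summed to 77803 and 19274 CPM, and basal keratinocyte markers to 36684 and 32238 CPM. Of the basal markers, 1 of 8 and 7 of 8 exceeded the other spots at least 2-fold. The part of these markers in the results was not tested. A spot covers several cells, so fewer cells of a type and less RNA per cell cannot be told apart.

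*Cyp1a1* (chr9:57687928-57703824) was sparse and gathered in the sebaceous-gene region, below the surface keratinocytes, in both sections. It had 161 UMIs in 92 spots of the f/f section (7.18% of spots) and 106 UMIs in 57 spots of the K14-Cre section (5.81%), where a background receptor gene reached a median of 9 and 11 spots. No spot held more than 9 UMIs in the f/f section or 10 in the K14-Cre section. The counts were clumped: 50% of the UMIs lay in 25 spots and in 14 spots. Of the spots with *Cyp1a1*, 61 (66.3%) in the f/f section and 28 (49.1%) in the K14-Cre section touched another such spot.

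**Figure D1:**
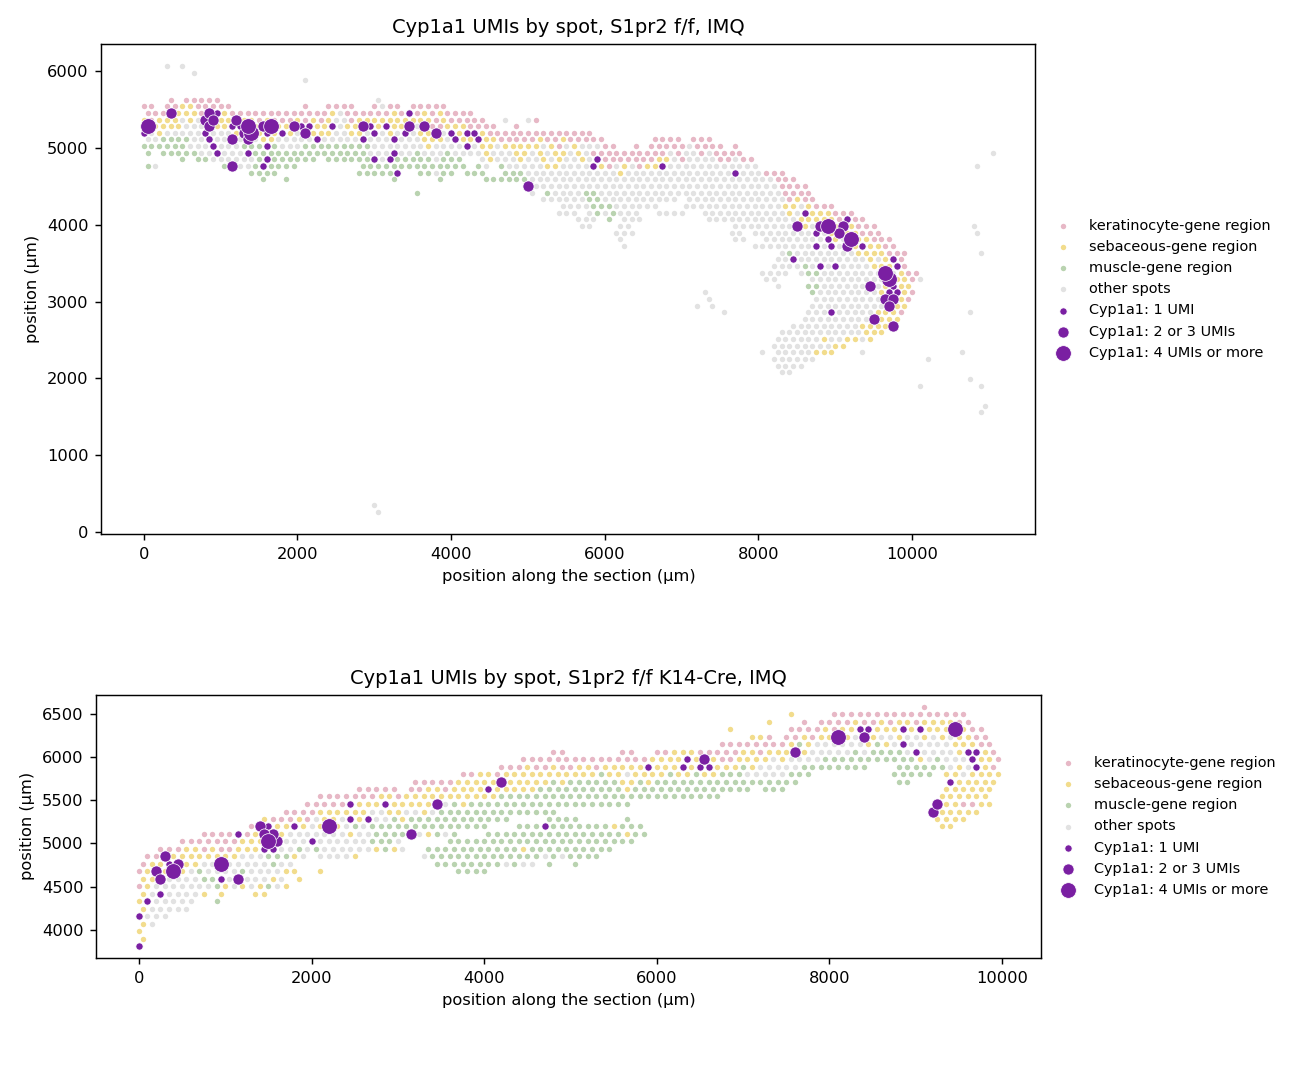
Position of every spot in micrometres in the f/f section and the K14-Cre section, coloured by region, with points sized by the *Cyp1a1* UMIs of the spot. Spots with *Cyp1a1* follow the sebaceous-gene region, which held 116 of 161 UMIs in the f/f section and 72 of 106 in the K14-Cre section.

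In the f/f section *Cyp1a1* stood at 66.1 CPM in the sebaceous-gene region (116 UMIs) and at 12.6 CPM in all other spots (45 UMIs), a log2 ratio of 2.39 (1.88 to 2.92). The K14-Cre values were 98.6 CPM in that region (72 UMIs) and 16.1 CPM elsewhere (34 UMIs), a log2 ratio of 2.62 (2.01 to 3.25). The region thus held 72.0% and 67.9% of all *Cyp1a1* UMIs on 18.1% and 31.4% of the spots. Its level in the keratinocyte-gene region was 4.25 CPM (4 UMIs, against 35.9 CPM in all other spots) in the f/f section, a log2 ratio of -3.08 (-4.97 to -1.69). The K14-Cre value there was 12.4 CPM (6 UMIs, against 42.4 CPM), a log2 ratio of -1.78 (-3.26 to -0.60), and 77.1% of background receptor genes had fewer UMIs than *Cyp1a1* in those spots. When the 2 spots nearest the surface in each array column stood in for the keratinocyte-gene region, the log2 ratios became 0.70 and 1.42, since the second spot from the surface already lies in the layer with the most *Cyp1a1*.

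Among single clusters, *Cyp1a1* in the f/f section was highest in the sebaceous-gene cluster, at 66.1 CPM (54.6 to 79.2), where 55 of 232 spots (23.7%) held it. The next was the cluster led by *Hbb-bt*, *Mup10* and *A530016L24Rik*, at 21.1 CPM (14.3 to 30.2), and the intervals of these clusters did not overlap. The K14-Cre section had a pair of sebaceous-gene clusters. The one led by *Spink2*, *Rarres1* and *Klk14*, with the melanocyte gene *Dct* and the hair follicle signal *Shh* also among its leading genes, stood at 116.5 CPM (86.2 to 154) with *Cyp1a1* in 24 of 104 spots (23.1%), and the one led by *Awat1*, *Sirpb1c* and *Zfp280c* at 74.3 CPM (47.1 to 111.5) with 13 of 204. Their intervals overlapped. Below them came the cluster led by *Tnnc1*, *Myh8* and *Tnni1* at 29.1 CPM (18.5 to 43.7). The lowest clusters were in keratinocytes and muscle. One keratinocyte-gene cluster of the f/f section had *Cyp1a1* in 0 of 115 spots, where a share of up to 2.61% would be allowed, and one muscle-gene cluster of the K14-Cre section in 0 of 196, where up to 1.53% would be. As low references in the f/f section, the other keratinocyte-gene cluster had it in 3 of 93 spots at a median of 7239 UMIs per spot. The muscle-gene cluster had it in 4 of 145 at 5182, shallower than the sebaceous-gene region with its median of 7013.5. A further f/f cluster, led by *Tceal7*, *Srl* and *Trim63*, had 7 of 7 muscle markers at least 2-fold but stayed unnamed. It had *Cyp1a1* at 20.1 CPM (4.14 to 58.7) on 3 UMIs.

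**Figure D2:**
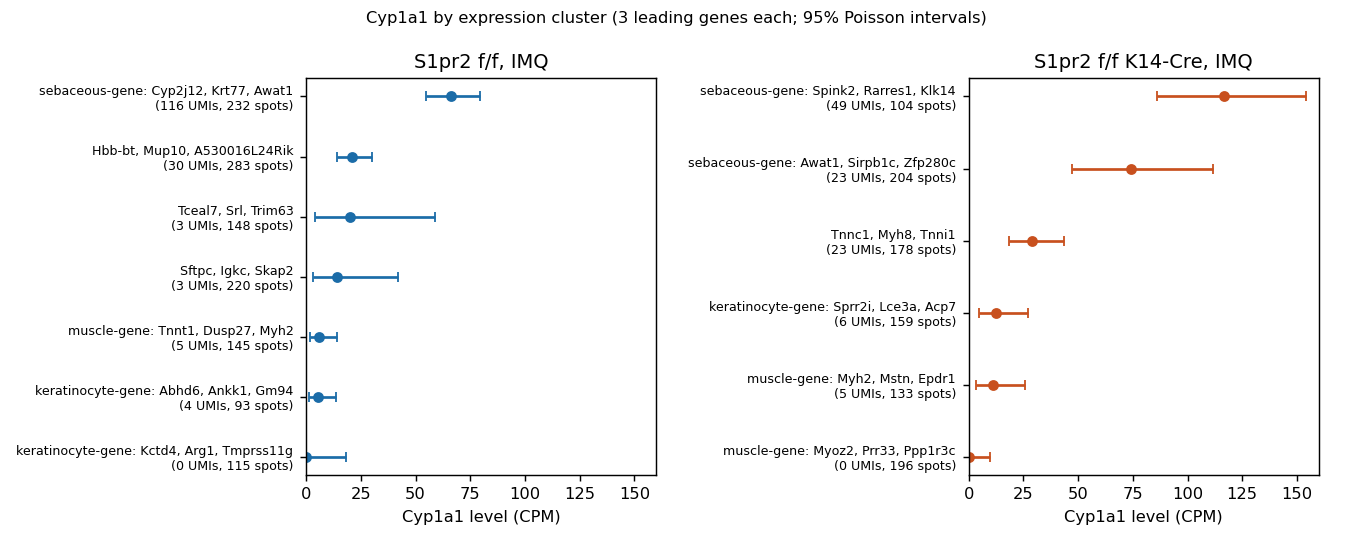
*Cyp1a1* level in CPM in each cluster of spots of the f/f section and the K14-Cre section, with exact Poisson 95% intervals for counting error. The sebaceous-gene clusters stand highest, at 66.1 CPM in the f/f section and 116.5 and 74.3 CPM in the K14-Cre section.

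A measure that needs no names for the deeper regions gave the same layer. By distance from the nearest spot of the keratinocyte-gene region, *Cyp1a1* in the f/f section went from 4.25 CPM inside the region to 38.6 CPM within 150 μm, 90.5 CPM (69.4 to 116) between 150 and 250 μm, 41.4 CPM to 350 μm, 12.2 CPM to 550 μm and 14.5 CPM beyond. The same steps in the K14-Cre section gave 12.4, 83.8, 110 (79.2 to 150), 31.7, 11.7 and 4.33 CPM. The highest layer was thus 150 to 250 μm from the keratinocyte-gene region in both sections. Its interval stood apart from all other layers in the f/f section and overlapped that of the layer within 150 μm in the K14-Cre section. Counted from the surface of each array column, the second tissue spot was highest in both sections, at 67.4 CPM and 94.1 CPM, against 4.40 and 22.8 CPM in the first spot.

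**Figure D3:**
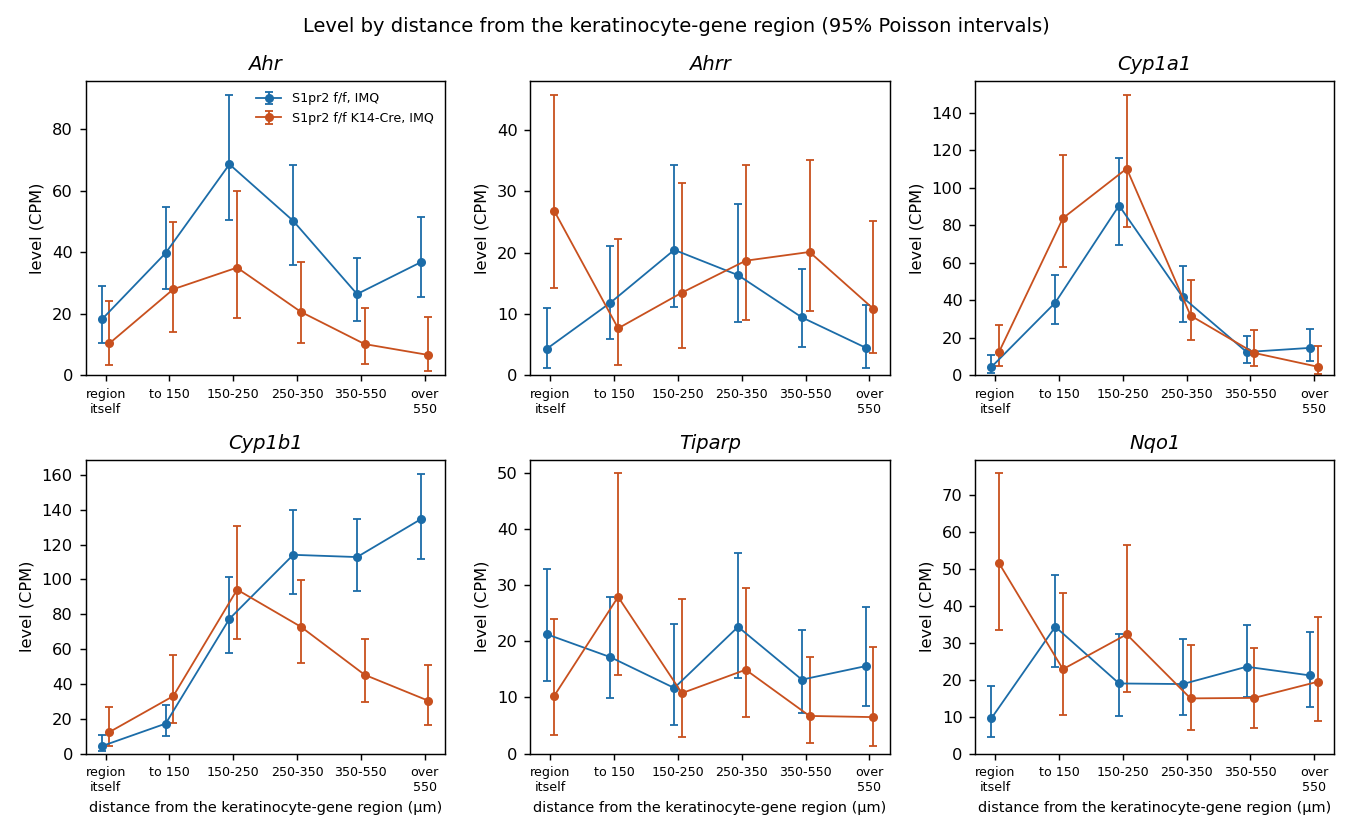
Level of each of the 6 genes in CPM by distance in micrometres from the nearest spot of the keratinocyte-gene region, where 0 is the region itself, for the f/f section and the K14-Cre section with exact Poisson 95% intervals. *Cyp1a1* and *Ahr* have their highest values between 150 and 250 μm in both sections. The *Ahr* intervals there overlap those of other layers, in the K14-Cre section those of all of them. *Cyp1b1* is low in the region itself, at 4.25 and 12.4 CPM.

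The spots richest in sebaceous markers were also the richest in *Cyp1a1*. In the 10% of spots with the largest share of these markers (110 spots in the f/f section, 95 in the K14-Cre section, from spots of at least 500 UMIs), it stood at 120 CPM against 17.4 CPM in the rest, and at 166 CPM against 23.5 CPM. The log2 ratios were 2.79 (2.33 to 3.26) and 2.82 (2.23 to 3.40). The boundary of these spots is not sharp, since 30 and 14 spots lay near it. In the spots richest in basal keratinocyte markers the log2 ratios were -3.28 (-6.33 to -1.40) and -2.85 (-5.91 to -0.96), on 2 UMIs in each section. For hair and inner root sheath markers they were 0.99 (0.42 to 1.53) in the f/f section and -0.42 (-1.47 to 0.49) in the K14-Cre section, so *Cyp1a1* did not follow these markers in both sections.

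Along the skin the sebaceous-gene region was divided into 4 consecutive segments. *Cyp1a1* stood at 81.9, 35.2, 0 and 67.7 CPM in the f/f section, where the segment at 0 held only 7 spots of the region. The K14-Cre segments stood at 98.4, 67.0, 83.6 and 119 CPM. Every segment with more than 7 spots of the region thus held *Cyp1a1*, and the values of the sections overlap.

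Genes with the pattern most like that of *Cyp1a1* were found by Pearson correlation of log2(CPM + 10) over bins of distance and segment, 24 bins in the f/f section and 23 in the K14-Cre section. Of 5673 genes with at least 100 UMIs in each section, those most alike by the lower of their r values included *Hsd17b12* (r = 0.742 in the f/f section and 0.754 in the K14-Cre section), *Fa2h* (0.728 and 0.741), *Sdr16c6* (0.714 and 0.745) and *Cers4* (0.703 and 0.856). *Hsd17b12* acts in the elongation of long-chain fatty acids, *Fa2h* hydroxylates fatty acids and *Cers4* makes ceramides. *Fa2h* stood at 45.7 CPM in the keratinocyte-gene region and 943 CPM in the sebaceous-gene region of the f/f section, and at 43.3 and 460 CPM in the K14-Cre section. The bins of a section share its tissue, depth and background, so r is a description. Of the other members *Cyp1b1* reached the minimum of UMIs in both sections. On the same scale *Ahr* had r of 0.620 and 0.519 with *Cyp1a1*, *Cyp1b1* 0.385 and 0.301, *Nqo1* 0.301 and -0.11, *Tiparp* 0.021 and 0.205, and *Ahrr* -0.046 and -0.0099.

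*Ahr* (chr12:35497979-35534989) was past the 2-fold limit between the sections over all spots, as lower in the K14-Cre section. It had 202 UMIs in 147 spots of the f/f section (11.5%) and 49 UMIs in 43 spots of the K14-Cre section (4.38%). By distance its highest value was also between 150 and 250 μm from the keratinocyte-gene region, at 68.6 CPM (50.4 to 91.3) in the f/f section and 35.0 CPM (18.6 to 59.8) in the K14-Cre section. In the f/f section this interval overlapped those within 150 μm (28.0 to 54.7), from 250 to 350 μm (35.9 to 68.3) and beyond 550 μm (25.3 to 51.6). In the K14-Cre section it overlapped those of all other layers, among them that from 250 to 350 μm (10.3 to 36.7). In the keratinocyte-gene region itself *Ahr* stood at 18.1 and 10.3 CPM. Counted from the surface, *Ahr* of the f/f section stood at 20.9 CPM in the first spot and between 32.0 and 48.0 CPM in all deeper ones. The sebaceous-gene region had *Ahr* at 49.5 CPM against 32.3 CPM in all other spots of the f/f section, a log2 ratio of 0.62 (0.20 to 1.03). In the K14-Cre section it stood at 39.7 against 9.45 CPM, a log2 ratio of 2.07 (1.20 to 2.97). The f/f section had *Ahr* in its muscle-gene region as well, at 33.3 CPM (28 UMIs), where the K14-Cre section had 4.76 CPM (4 UMIs). The f/f spots richest in muscle markers were lower in *Ahr* than the rest, at 14.3 CPM (6 UMIs) against 40.2 CPM (log2 ratio -1.49, -2.95 to -0.34). The unnamed f/f cluster led by *Tceal7*, *Srl* and *Trim63*, with 7 of 7 muscle markers, had 13.4 CPM (1.62 to 48.4) on 2 UMIs.

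*Ahrr* (chr13:74211118-74292331) had no layer that stood apart in both sections. It had 56 UMIs in 36 spots of the f/f section (2.81%) and 48 UMIs in 27 spots of the K14-Cre section (2.75%). In the f/f section it was low in the keratinocyte-gene region, at 4.25 CPM against 11.9 CPM elsewhere (4 and 52 UMIs, log2 ratio -1.48, -3.41 to -0.04). Between 150 and 250 μm from it the level was 20.4 CPM (11.2 to 34.3), which overlapped the neighbouring layers, and the cluster led by *Sftpc*, *Igkc* and *Skap2* had 43.0 CPM (19.7 to 81.6) on 9 UMIs. The same region of the K14-Cre section stood at 26.8 CPM against 14.8 CPM elsewhere (13 and 35 UMIs, log2 ratio 0.85, -0.19 to 1.81), and its interval of 14.3 to 45.8 CPM overlapped those of deeper layers. The sebaceous-gene region had *Ahrr* at 13.7 CPM in the f/f section and 15.1 CPM in the K14-Cre section, where 76.0% of background receptor genes had fewer UMIs.

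Receptor and repressor were seldom in the same spot. In the f/f section 11 spots held both *Ahr* and *Ahrr*, which is 7.48% of the 147 spots with *Ahr* (3.79% to 13.0%) and 30.6% of the 36 spots with *Ahrr*. Of the spots without *Ahr*, 2.20% held *Ahrr*. Spots with *Ahr* were deeper, with a median of 5968 UMIs against 3022, and as CPM *Ahrr* stood at 16.7 with *Ahr* and 9.07 CPM without, a log2 ratio of 0.88 (-0.03 to 1.74). When spots were thinned to 1000 UMIs the ratio turned to -0.60, on a mean of 0.25 shared spots. For the K14-Cre section, 1 spot held both, 2.33% of the 43 spots with *Ahr* (0.06% to 12.3%), against 2.77% of the spots without, and the log2 ratio was -0.62 (-3.70 to 1.32).

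Within the sebaceous-gene region of the f/f section, 7 of 57 spots with *Ahr* also held *Ahrr*, and the log2 ratio was 1.46 (0.19 to 2.76). Of the K14-Cre spots, 0 of 24 did, which by an exact binomial interval allows up to 14.2%. The keratinocyte-gene region had no spot with both genes in either section. For comparison, a background receptor gene shared a median of 2 spots with *Ahr* in the f/f section, with a percentile 95 of 5 and a highest value of 21, and a median of 1, with values of 3 and 9, in the K14-Cre section. These genes had fewer UMIs, a mean of 11.8 in the f/f section against 56 of *Ahrr*. The 11 shared spots of the f/f section thus lay above percentile 95 of the background genes and below the highest, and since a spot covers several cells a shared spot does not show a shared cell.

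**Figure D4:**
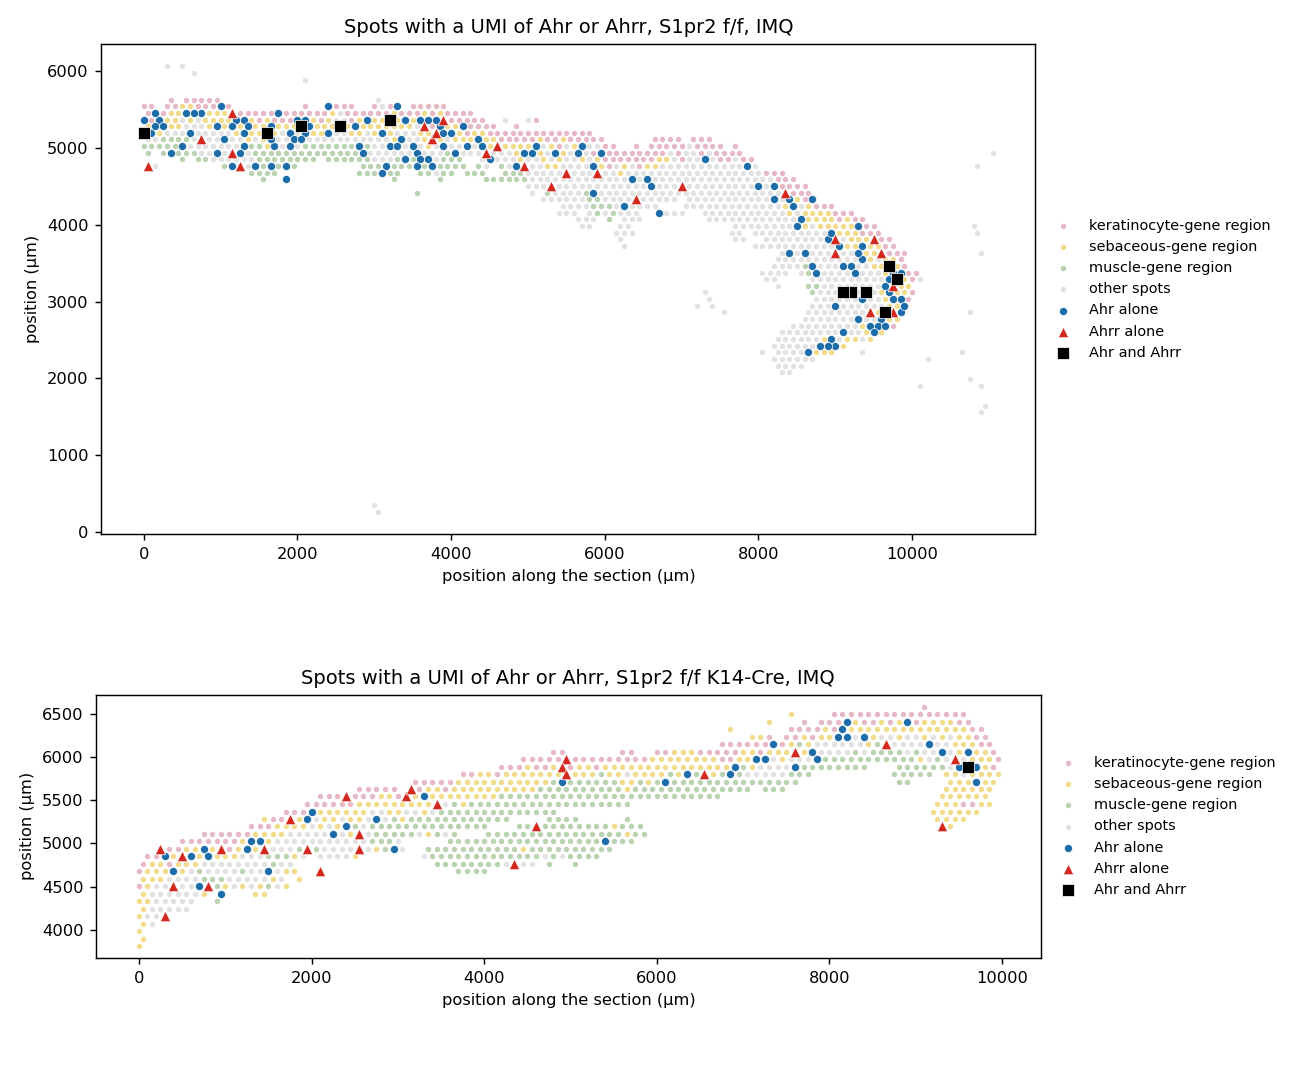
Position in micrometres of the spots with *Ahr* alone, *Ahrr* alone and both in the f/f section and the K14-Cre section. Both genes were found together in 11 spots of the f/f section and 1 spot of the K14-Cre section.

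*Ahr* and *Cyp1a1* shared 22 spots of the f/f section (14.97% of the *Ahr* spots, against 6.17% of the spots without *Ahr*) and 6 spots of the K14-Cre section (13.95% against 5.44%). As CPM, *Cyp1a1* in spots with over spots without *Ahr* gave log2 ratios of 0.53 (-0.02 to 1.06) and 1.31 (0.41 to 2.10). Within the sebaceous-gene region the log2 ratios were -0.24 (-0.88 to 0.37) and 0.83 (-0.10 to 1.67), so inside that region neither section showed a difference beyond counting error. *Ahrr* and *Cyp1a1* shared 6 and 3 spots.

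*Cyp1b1* (chr17:79706940-79715061), a related P450 that is also active in connective tissue, was layered differently from *Cyp1a1* in the f/f section. It had 405 UMIs in 246 spots of that section and 134 UMIs in 93 spots of the K14-Cre section. In the f/f section it stood at 4.25 CPM in the keratinocyte-gene region (4 UMIs), 77.4 CPM between 150 and 250 μm from it, and 135 CPM beyond 550 μm. The K14-Cre section had 12.4 CPM in the region (6 UMIs), 94.2 CPM between 150 and 250 μm and 30.3 CPM beyond 550 μm. Both sections thus had the least *Cyp1b1* among surface keratinocytes, with log2 ratios against the other spots of -4.43 (-6.31 to -3.06) and -2.13 (-3.61 to -0.97). The deepest layer was the highest in the f/f section only. Its interval there (112 to 161 CPM) overlapped those from 250 to 350 μm (91.9 to 140) and from 350 to 550 μm (93.6 to 135). In the K14-Cre section *Cyp1b1* was highest between 150 and 250 μm, as *Cyp1a1* was. This interval (65.6 to 131) overlapped those from 250 to 350 μm (51.8 to 99.5) and from 350 to 550 μm (29.8 to 65.8). In the spots richest in dermis markers *Cyp1b1* had log2 ratios of 1.49 (1.11 to 1.85) and 0.80 (0.13 to 1.42) against the rest, and in those richest in fat markers of 1.02 (0.58 to 1.43) and 1.60 (1.00 to 2.17). Its level in the sebaceous-gene region was 43.9 CPM against 92.2 CPM elsewhere in the f/f section (log2 ratio -1.07, -1.45 to -0.71) and 53.4 against 44.9 CPM in the K14-Cre section (0.25, -0.33 to 0.80).

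*Tiparp* (chr3:65528447-65555518) had 90 UMIs in 73 spots of the f/f section and 35 UMIs in 25 spots of the K14-Cre section. It was nearly level over the layers of the f/f section, between 11.7 and 22.6 CPM, with 21.3 CPM (20 UMIs) in the keratinocyte-gene region. In the K14-Cre section it was highest within 150 μm of that region, at 27.9 CPM, and stood at 20.5 CPM in the sebaceous-gene region against 9.45 CPM elsewhere (15 and 20 UMIs, log2 ratio 1.12, 0.05 to 2.16). A background receptor gene rose likewise, from a mean of 4.53 CPM elsewhere to 10.2 CPM in the sebaceous-gene region. Of these genes, 90.0% had fewer UMIs than *Tiparp* in that region.

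*Nqo1* (chr8:107388225-107403205), a quinone reductase that NRF2 controls as well as AHR, differed between the sections in its level among surface keratinocytes. It had 113 UMIs in 79 spots of the f/f section and 72 UMIs in 38 spots of the K14-Cre section. Its level in the keratinocyte-gene region was 9.57 CPM (9 UMIs) in the f/f section, against 23.8 CPM elsewhere, and 51.5 CPM (25 UMIs) in the K14-Cre section, against 19.9 CPM elsewhere. The log2 ratios were -1.31 (-2.48 to -0.33) and 1.37 (0.61 to 2.10). The K14-Cre counts came from all 4 segments of the region, with 7, 5, 7 and 6 UMIs at 29.6, 130, 118 and 39.6 CPM, where the f/f segments stood at 9.8, 9.6, 20.2 and 7.3 CPM. These values rest on 1 to 7 UMIs each. Counting intervals overlapped in segments 1, 3 and 4, as for segment 1 with 2.67 to 25.1 CPM (f/f) and 11.9 to 61.1 CPM (K14-Cre). In segment 2 they did not, at 1.16 to 34.5 CPM (f/f, 2 UMIs) and 42.3 to 304 CPM (K14-Cre, 5 UMIs). The 25 UMIs of the K14-Cre region lay in 11 of its 159 spots. In the spots richest in differentiated keratinocyte markers *Nqo1* had a log2 ratio of 1.78 (0.93 to 2.58) against the rest in the K14-Cre section and -0.44 (-1.61 to 0.54) in the f/f section.

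A ratio was counted as past the limit when it was at least 2-fold on at least 20 UMIs with an interval that left out equality. In the keratinocyte-gene region of the f/f section, 5 of the 6 genes (*Ahr*, *Ahrr*, *Cyp1a1*, *Cyp1b1* and *Nqo1*) were past it as lower than the other spots, where 37.6% of all genes were, and none as higher, where 4.02% were. The median log2 ratio was -1.28 over the 6 genes and -0.82 over all genes. In the sebaceous-gene region of the f/f section *Cyp1a1* was past it as higher, where 4.17% of all genes were, and *Cyp1b1* as lower, where 6.55% were (median 0.62 over the 6 genes and 0.11 over all genes). For the keratinocyte-gene region of the K14-Cre section, *Nqo1* was higher, with 12.3% of all genes, and *Cyp1a1* and *Cyp1b1* lower, with 16.9% (median -0.46 and -0.04). In its sebaceous-gene region *Ahr*, *Cyp1a1* and *Tiparp* were higher, with 20.8% of all genes, and none lower, with 4.4% (median 0.70 and 0.41). A background receptor gene was also higher there, at a mean of 10.2 CPM against 4.53 CPM elsewhere.

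Between the sections, *Ahr* was lower in the K14-Cre section, and *Cyp1a1* as CPM of summed UMIs differed by no more than counting error. Over all spots *Ahr* stood at 17.2 CPM in the K14-Cre section and 38 CPM in the f/f section, a log2 ratio of -1.14 (-1.62 to -0.69). *Cyp1b1* stood at 47.1 and 76.2 CPM (-0.69, -0.99 to -0.41). *Ahrr* stood at 16.9 and 10.5 CPM (0.68, 0.09 to 1.26). For *Cyp1a1* the values were 37.2 and 30.3 CPM (0.30, -0.07 to 0.66), for *Tiparp* 12.3 and 16.9 CPM (-0.46, -1.07 to 0.12), and for *Nqo1* 25.3 and 21.3 CPM (0.25, -0.20 to 0.69), and these intervals include equality. *Ahr* was past the limit as lower, where 4.46% of all genes were, and none of the 6 as higher, where 27.4% were. The median log2 ratio was -0.10 over the 6 genes and 0.40 over all genes, and the summed background receptor genes stood at 1.43 (1.40 to 1.46). TMM scaling moves every log2 ratio over all spots by -0.37 and the median of all genes to 0.03, which puts *Cyp1a1* at -0.073 and *Nqo1* at -0.12. It also puts *Cyp1b1* at -1.07 (-1.36 to -0.78), past the limit as lower together with *Ahr* at -1.51 (-1.99 to -1.06), where 10.8% of all genes were lower and 17.1% higher. *Ahrr* came to 0.31 (-0.28 to 0.89), which includes equality, and *Tiparp* to -0.83 (-1.44 to -0.25), which does not. With each spot weighted alike, as the mean over spots of CPM, *Cyp1a1* had a log2 ratio of 0.74.

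As CPM, the lower *Ahr* of the K14-Cre section was clearest outside the sebaceous-gene region. Inside it *Ahr* stood at 39.7 CPM in the K14-Cre section and 49.5 CPM in the f/f section (log2 ratio -0.32, -0.98 to 0.30). That interval includes equality, but the median of all genes inside the region, 0.36, lies above it. Outside it the values were 9.45 CPM (20 UMIs) and 32.3 CPM (115 UMIs), a log2 ratio of -1.77 (-2.54 to -1.08). The intervals inside and outside the region did not overlap. The muscle-gene region, which took 33.5% of spots in the K14-Cre section and 11.3% in the f/f section, gave -2.81 (-4.78 to -1.29). A further f/f cluster of 148 shallow spots also had 7 of 7 muscle markers but stayed unnamed. With it the muscle share of the f/f section was 22.9% and the log2 ratio of *Ahr* was -2.67, an alternative chosen after seeing the data. *Cyp1b1* followed the same split, with 0.28 (-0.31 to 0.86) inside the sebaceous-gene region and -1.04 (-1.38 to -0.70) outside it. The median of all genes outside it was 0.20. How much of these differences comes from the different share of muscle and other tissue in each section was not tested.

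*Cyp1a1* of the sebaceous-gene region was higher in the K14-Cre section, at 98.6 against 66.1 CPM, a log2 ratio of 0.58 (0.13 to 1.01). The median of all genes there was 0.36, which lies within that interval, and the summed background genes stood at 2.05. None of the 6 genes was past the limit there, where 26.5% of all genes were as higher and 6.97% as lower, and their median was 0.12. The spots of the region were shallower in the K14-Cre section, with a median of 1699 UMIs against 7013.5. The region also differed between the sections in its sebaceous, muscle and dermis markers, as given above.

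The Cre acts in the keratinocyte-gene region as well as in hair follicle and sebaceous cells. This region differed between the sections in its keratinocyte markers, as given above. *Nqo1* was past the limit there as higher in the K14-Cre section (51.5 against 9.57 CPM, log2 ratio 2.43, 1.28 to 3.71), with 24.9% of all genes. None of the 6 was past it as lower, with 11.4%. TMM moves the ratios of this region by -0.85. *Nqo1* then stood at 1.58 (0.43 to 2.86), with 7.65% of all genes past the limit as higher, and *Ahr* at -1.66 (-3.46 to -0.17) and *Tiparp* at -1.90 (-3.67 to -0.44) were past it as lower, with 32.8% of all genes. With the 2 spots nearest the surface in place of the region, the log2 ratio of *Nqo1* was 0.77. With 0.5 UMIs added to each count, the 3 genes of the 6 with the minimum UMIs had a median of -0.72, and all genes one of 0.29. The summed background receptor genes had a log2 ratio of 3.09 there, above that of *Nqo1*. *Ahrr* stood at 26.8 against 4.25 CPM (13 and 4 UMIs, 2.65, 0.96 to 4.73) and was under the minimum of 20 UMIs, as were *Cyp1a1* and *Cyp1b1*, each with 6 and 4 UMIs. *Ahr* had 5 and 17 UMIs (-0.81, -2.60 to 0.69) and *Tiparp* 5 and 20 (-1.05, -2.82 to 0.41). In this region of the K14-Cre section 68.1% of background receptor genes had fewer UMIs than either gene.

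**Figure D5:**
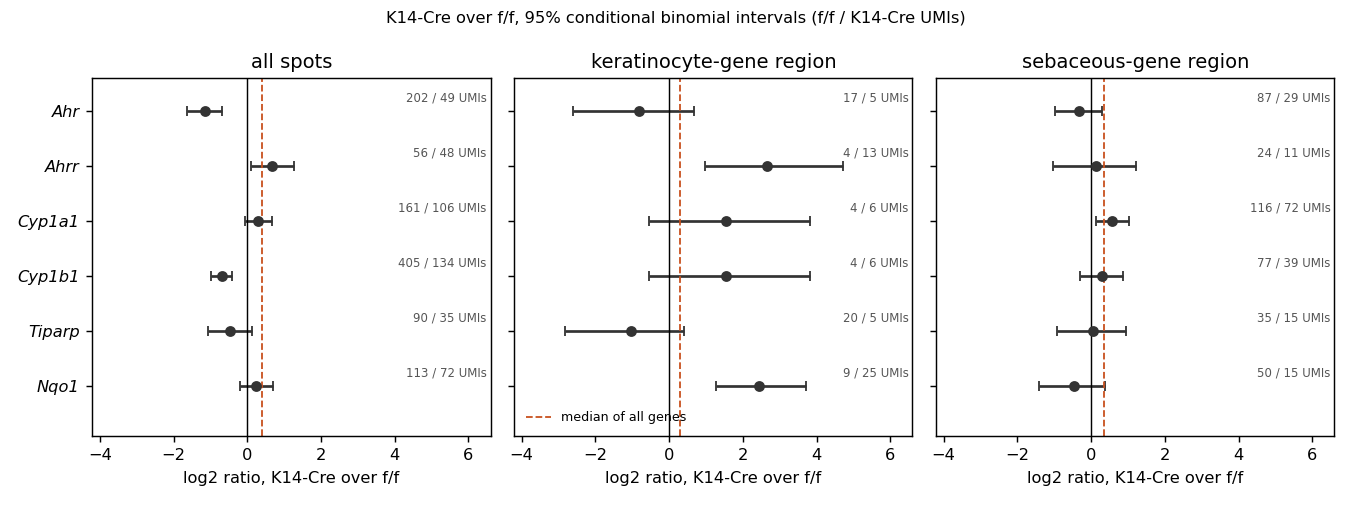
Log2 ratio of the K14-Cre section over the f/f section for the 6 genes over all spots, in the keratinocyte-gene region and in the sebaceous-gene region, with 95% counting intervals and the median of all genes as a dashed line. *Ahr* lies at -1.14 over all spots and *Nqo1* at 2.43 in the keratinocyte-gene region, while every gene lies between -0.47 and 0.58 in the sebaceous-gene region.

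Other genes of the pathway were taken from lists. Of the partners of the receptor, *Arnt*, with which it binds DNA, and the chaperone gene *Hsp90aa1* are given. Over all spots *Arnt* stood at 82.9 CPM in the K14-Cre section and 81.1 CPM in the f/f section (log2 ratio 0.03, -0.20 to 0.26), and *Hsp90aa1* at 116 and 115 CPM (0.01, -0.19 to 0.20). Neither was past the limit over all spots, in the keratinocyte-gene or sebaceous-gene region, or between either region and the other spots of either section.

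Of other genes listed as responding to the receptor, 4 of 6 were measured: *Cyp1a2*, *Aldh3a1*, *Ugt1a6b* and *Scin*. *Aldh3a1*, an aldehyde dehydrogenase, shared the sebaceous-gene region with *Cyp1a1*. It stood there at 33.0 CPM against 14.3 CPM elsewhere in the f/f section (58 and 51 UMIs, log2 ratio 1.20, 0.64 to 1.78) and at 50.7 against 10.9 CPM in the K14-Cre section (37 and 23 UMIs, 2.22, 1.43 to 3.04). *Scin* was past the limit as higher there in the K14-Cre section (13 and 10 UMIs, 1.91, 0.61 to 3.26), with 20.8% of all genes. In those spots 84.9% of background receptor genes had fewer UMIs. In that region 3 of the 4 reached the minimum in each section, with medians of 0.51 and 1.90. Between the sections over all spots *Cyp1a2*, a close relative of *Cyp1a1*, was past the limit as higher on 22 and 11 UMIs (1.90, 0.80 to 3.09), with 27.4% of all genes, and the median of the 4 was -0.09. Its counts lay among those of the background receptor genes, of which 71.0% and 47.3% had fewer UMIs, and their summed ratio of 1.43 lay inside its interval.

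Of 7 kynurenine pathway genes, which make tryptophan metabolites that can bind AHR, all were measured at low levels. Over all spots *Ido2* was higher in the K14-Cre section (18 and 10 UMIs, log2 ratio 1.75, 0.56 to 3.03), with 27.4% of all genes, and the median of the 7 was 0.30. It too lay among the background receptor genes, of which 57.7% and 41.8% had fewer UMIs, and their ratio of 1.43 was inside its interval. *Tdo2* and *Kmo* were past the limit as lower in the keratinocyte-gene region of the f/f section, with 1 and 0 UMIs against 46 and 69 in the other spots. These were 2 of the 6 listed genes with the minimum UMIs, and 37.6% of all genes were lower there. In the sebaceous-gene region of that section *Kynu* was higher (19 and 19 UMIs, 1.02, 0.02 to 2.02), with 4.17% of all genes, and *Afmid* lower (1 and 19 UMIs, -3.23, -8.61 to -0.58), with 6.55%. *Tdo2* was past the limit as higher in the sebaceous-gene region of the K14-Cre section over that of the f/f section, on 11 and 10 UMIs (1.40, 0.03 to 2.80). There 26.5% of all genes were higher, and the background receptor genes stood at 2.05. None was past it between a region and the other spots of the K14-Cre section.

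Of 11 listed NRF2 pathway genes, which share the control of *Nqo1*, 10 were measured. In the keratinocyte-gene region, where *Nqo1* was higher in the K14-Cre section, none of the 10 was past the limit as higher, where 24.9% of all genes were. As lower there were 2, where 11.4% of all genes were: *Gclc*, of glutathione synthesis (2 and 26 UMIs, log2 ratio -2.75, -5.87 to -0.75), and *Txnrd1*, thioredoxin reductase (14 and 82 UMIs, -1.60, -2.53 to -0.77). The median of the 10 was 0.16 against 0.29 for all genes. Short of 2-fold, *Nfe2l2*, which encodes NRF2, was higher in the K14-Cre section, at 453 against 265 CPM (0.78, 0.51 to 1.04). *Slc7a11*, the cystine transporter, was lower (-0.61, -1.08 to -0.16). These ratios between the sections are without TMM scaling, which moves every ratio of the keratinocyte-gene region by -0.85. That shift is larger in size than the ratio of *Nfe2l2*. Within a section, *Slc7a11* was higher in the keratinocyte-gene region than elsewhere in the f/f section (2.06, 1.75 to 2.37) and in the K14-Cre section (2.74, 2.13 to 3.37). Of all genes, 4.02% and 12.3% were. *Nfe2l2* was higher there in the K14-Cre section (1.01, 0.78 to 1.24), and *Keap1*, the gene of the NRF2 inhibitor, lower in the f/f section (-1.29, -1.99 to -0.66), where 37.6% of all genes were. In the sebaceous-gene region of the K14-Cre section *Gclc* (2.05, 0.99 to 3.15) and *Srxn1* (1.09, 0.22 to 1.93) were higher than elsewhere, with 20.8% of all genes. A background receptor gene had a mean of 10.2 CPM there and 4.53 CPM elsewhere. Over all spots *Gclc* was lower in the K14-Cre section (34 and 152 UMIs, -1.26, -1.84 to -0.71), with 4.46% of all genes, and the median of the 10 was -0.22.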

How the data were processed

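Visium CytAssist libraries were made from 1 formalin-fixed section per genotype. The deposited matrices hold whole UMI counts for each gene in every spot over tissue, not normalized by the authors, and come with spot positions. The file header names Space Ranger 3.0.0 and the submitters' notes name mm10. The members and the gene lists were chosen with earlier results of these data known. Named were the 6 members, the 5 genes most like *Cyp1a1*, and listed pathway genes, of which some items are not reported here.

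Spots with at least 50 UMIs (46 and 7 spots were left out) were clustered per section with scanpy 1.11.5, igraph 0.11.9 and leidenalg 0.10.2 in Python 3.11.15 (2000 variable genes without members and lists, 20 components, 15 neighbours, Leiden resolution 1). A cluster took a name when at least 50% of a list's markers exceeded the remaining spots at least 2-fold. It stayed unnamed where its 10 leading genes held more markers of another list (blood in the f/f cluster led by *Hbb-bt*), were mostly developmental muscle genes, or held no marker in a shallow cluster. Intervals are 95%: exact Poisson for CPM, Clopper-Pearson for shares, conditional binomial for ratios. A count of 0 was taken to allow 3 counts. In medians, a pseudocount of 0.5 UMIs was added to each count of every gene. With 1 section per genotype no test was made. Spots and segments are not replicates. The scripts were tested on simulated counts. Alternatives were TMM scaling (edgeR 4.0.16 in R 4.3.3), the mean over spots of CPM, Leiden resolution 0.5, joint clustering, the 2 uppermost spots of each column, as many spots chosen by keratinocyte marker share, spots of at least 500 UMIs, thinning to 1000 UMIs (20 draws) and the receptor background taken off. Values outside the sebaceous-gene region, the calls under TMM, and all alternatives for its ratios, were chosen after seeing the data.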

Additional observations from a re-analysis of the deposited data

How the results depend on the processing

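Of 248 recomputed values, 224 stayed within the counting error of the value reported, 20 moved beyond it and 4 reversed. Alternatives for the ratios of the sebaceous-gene region were chosen after seeing the data. The cause of a move was not tested except where stated. No paired analysis was possible because each genotype had 1 section, and for the same reason no replicate was left out.

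With the 2 uppermost spots of each column as the surface layer, which takes in the layer richest in *Cyp1a1* by construction, the log2 ratio against the other spots became 0.70 (f/f section) and 1.42 (K14-Cre section) for *Cyp1a1*, -0.33 and 0.82 for *Ahr*, -2.75 and -0.75 for *Cyp1b1*, and 0.21 for *Nqo1* in the f/f section. The ratio of *Nqo1* between the sections fell there to 0.77. Over all spots, TMM put the log2 ratio between the sections at -0.073 for *Cyp1a1* and -1.07 for *Cyp1b1*, the mean over spots of CPM put *Cyp1a1* at 0.74, and thinning put *Tiparp* at 0.12. With the receptor background taken off, *Ahr* stood at -1.67 over all spots and -2.69 in the keratinocyte-gene region, and *Tiparp* at -1.22 and -2.94. In that region of the K14-Cre section each gene had 5 UMIs, at 10.3 CPM against a background mean of 7.64 CPM. The values of -2.69 and -2.94 thus rest on little more than the background. Thinning put *Nqo1* of the f/f sebaceous-gene region at -0.0065 against the other spots, and *Ahrr* in f/f spots with over without *Ahr* at -0.60. By rank from the surface the layer highest in *Cyp1a1* was number 2 in both sections, where by distance it was the third of 6. With log2(CPM + 1) or with Spearman's rho, 3 of the 5 genes most like *Cyp1a1* stayed among the first 5.

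Joint clustering gave no keratinocyte-gene or sebaceous-gene region of at least 20 spots in the K14-Cre section, so it gave no value there and none between the sections. Counts limit the values of the keratinocyte-gene region, where *Cyp1a1* rests on 4 and 6 UMIs.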
